A study of Mus musculus with 117 samples.

Results

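The genes described here are 8 genes of fatty acid burning and its control in the liver: Ppara, Cpt1a, Acadm, Ehhadh, Pdk4, Fgf21, Angptl4 and Plin2. They were taken by name and not by a threshold on a measured value, though with earlier results of these data known, out of 21631 protein-coding genes on the autosomes and chromosome X. Each gene was read as its annotated span in assembly GRCm38.p6 with 2 kb added on each side, which gave 1413 bins of 200 bp over the 8 genes, from 29 bins for Fgf21 to 381 for Ppara.

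The study profiled chromatin in hepatocytes, the parenchymal cells of the liver, from female mice aged 12 weeks of 9 inbred strains. By origin, known as background, 6 are laboratory strains (C57BL/6J, 129S1/SvImJ, NOD/ShiLtJ, A/J, NZO/HlLtJ, DBA/2J) and 3 are wild-derived (WSB/EiJ, CAST/EiJ, PWK/PhJ). In each strain 3 mice gave chromatin immunoprecipitation libraries for the histone marks H3K4me1, H3K4me3, H3K27ac and H3K27me3, and 1 input library was made, so that 117 libraries were sequenced, 13 per strain. The deposited segmentation combines all libraries of a strain and gives each 200-bp bin 1 of 14 chromatin states, so a strain contributes 1 value, the spread between mice cannot be measured, and the sequencing depth behind a state is unknown. No treatment is named in the labels, and whether the mice were fed or fasted is not given in the sources used here.

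Ppara encodes a nuclear receptor that fatty acids activate, mainly during fasting, and that binds DNA as a partner of the retinoid X receptor at repeats of a short sequence. Its targets carry fatty acids into mitochondria, break them down by beta-oxidation, spare glucose and send signals out of the liver. Cpt1a makes the carnitine conjugate by which fatty acids enter mitochondria, Acadm opens mitochondrial oxidation of medium-chain fatty acids, and Ehhadh is a bifunctional enzyme of peroxisomal oxidation. Pdk4 is a kinase that switches off pyruvate dehydrogenase, Fgf21 and Angptl4 encode a secreted hormone and a secreted inhibitor of lipoprotein lipase, and Plin2 coats lipid droplets.

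State numbers are used only as names, since the sources used here do not say which marks each state carries. State 3 lay at gene starts, state 1 around it and into the gene, and states 2 and 4 farther in, while state 14 filled most of the genome, with 72.3% ± 1.26 of all bins (SD, n = 9 strains). State 13, which covered 15.9% ± 1.08 of the genome, was found in none of the bins of the 8 genes in any strain. The labelled cell type was checked on marker genes: all 8 hepatocyte markers had a state 1 share above the upper quartile of protein-coding genes (11.2%), and the median of the list lay between 46.8% and 59.0% in the 9 strains. The 4 Kupffer cell markers were at 0 in state 1 in every strain, the lists of stellate and bile duct markers had a median of 0 in every strain, and the endothelial list lay between 0.891% and 4.57%. Of those 16 genes, Sox9 (16.0%) and Lyve1 (16.5%) were above the upper quartile. PWK/PhJ stood apart over all protein-coding genes in the share outside state 14. Its median gene had 30.3% of bins outside state 14, against 36.5% to 40.6% in the other strains. What this contributes to the PWK/PhJ values below was not tested.

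The promoters are shown first because the genes differed most plainly there. Promoter sequences of the reference strain, from RefSeq for GRCm38.p6, were found for 7 of the 8 genes by gene identifier, Angptl4 being the missing entry. The 4 below span the range of the set: the 250 bases before the annotated start are given 5′ to 3′ on the gene's strand, with CpG dinucleotides in capitals. Ppara (chr15:85735526-85735775, plus strand) had the broadest state 3, Cpt1a (chr19:3323051-3323300, plus strand) had it in every strain, Ehhadh (chr16:21787835-21788084, minus strand) in 6 of 9 strains and Fgf21 (chr7:45615491-45615740, minus strand) in none within 1 kb of the start.
Ppara: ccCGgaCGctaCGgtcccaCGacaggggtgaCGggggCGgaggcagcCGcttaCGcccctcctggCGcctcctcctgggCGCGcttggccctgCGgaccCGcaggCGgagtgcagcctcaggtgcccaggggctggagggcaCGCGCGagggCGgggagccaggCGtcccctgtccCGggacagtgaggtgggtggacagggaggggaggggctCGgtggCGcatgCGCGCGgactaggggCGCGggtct
Cpt1a: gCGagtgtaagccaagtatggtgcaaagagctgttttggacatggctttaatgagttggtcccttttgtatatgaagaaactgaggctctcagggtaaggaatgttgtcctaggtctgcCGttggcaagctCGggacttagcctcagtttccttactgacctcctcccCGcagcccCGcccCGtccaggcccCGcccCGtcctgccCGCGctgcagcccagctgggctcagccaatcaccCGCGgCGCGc
Ehhadh: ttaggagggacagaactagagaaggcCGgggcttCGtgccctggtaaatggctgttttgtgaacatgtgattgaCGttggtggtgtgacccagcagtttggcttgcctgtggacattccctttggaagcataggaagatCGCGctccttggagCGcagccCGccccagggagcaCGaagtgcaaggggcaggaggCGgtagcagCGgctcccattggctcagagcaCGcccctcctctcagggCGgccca
Fgf21: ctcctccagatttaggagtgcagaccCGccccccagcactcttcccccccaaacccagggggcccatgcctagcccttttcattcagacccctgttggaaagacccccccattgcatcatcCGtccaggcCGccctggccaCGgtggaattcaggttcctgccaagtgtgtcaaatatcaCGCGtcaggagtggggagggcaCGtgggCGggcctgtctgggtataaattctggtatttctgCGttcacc

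In these 250 bases Ppara held 27 CpG dinucleotides, Cpt1a 14, Ehhadh 12 and Fgf21 9. In the full 300-base window, which adds the 50 bases after the start, Ppara had 30 CpG, Cpt1a 22, Ehhadh 14, Acadm 13, Pdk4 12, Plin2 10 and Fgf21 9, where the median promoter had 14. Over all 17274 protein-coding genes with a listed start, state 3 was found within 1 kb of the start in all 9 strains for 72.2% of promoters with at least 20 CpG, 53.2% of those with 10 to 19, 17.2% of those with 5 to 9 and 4.16% of those with fewer. Ppara and Cpt1a therefore belong to the class in which state 3 was most common, and Fgf21 to one in which 67.0% of genes had it in no strain. Ehhadh shared its CpG class with Acadm, Pdk4 and Plin2, which all had state 3 in every strain.

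Short motifs were searched on both strands of the 300-base windows. The hexamer AGGTCA, the unit that Ppara and its partner receptor recognise, was found in Cpt1a (bases -94 to -89, counted with the start base as 0), Acadm (-249 to -244) and Plin2 (-218 to -213), in each case on the other strand, and in 14.4% of all promoters. In Fgf21 the sequences TATAAA (-28 to -23), CACGTG (-50 to -45) and ATTGCATCA (-140 to -132) were present, which occur in 13.4%, 8.01% and 0.191% of promoters, and Plin2 also held CACGTG (-4 to 1). These last 3 motifs were chosen after the sequences had been read. The matches describe the reference sequence only, since no sequence of the other 8 strains was used.

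At the starts, state 3 was found within 1 kb in all 9 strains in 5 of the 7 genes with a listed start, against 41.3% of protein-coding genes, and in no strain in 1 of 7, against 47.1%. State 1 lay within 1 kb of the start in all 9 strains in 7 of 7, against 46.5% of genes. State 13 did so in 0 of 7, against 13.2%. The counts of state 3 over 11 bins around the start were graded across the genes. Means over strains were 9.11 at Ppara, 5.89 at Acadm, 5.67 at Cpt1a and 5 at Plin2. They were 2.33 at Pdk4, 0.778 at Ehhadh and 0 at Fgf21. The map of states by strain shows state 3 as red blocks of different width at the start line. Over all protein-coding genes with a start, the median was 0.333 bins and the 90th percentile 5.33 bins (mean over strains).

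**Figure D1:**
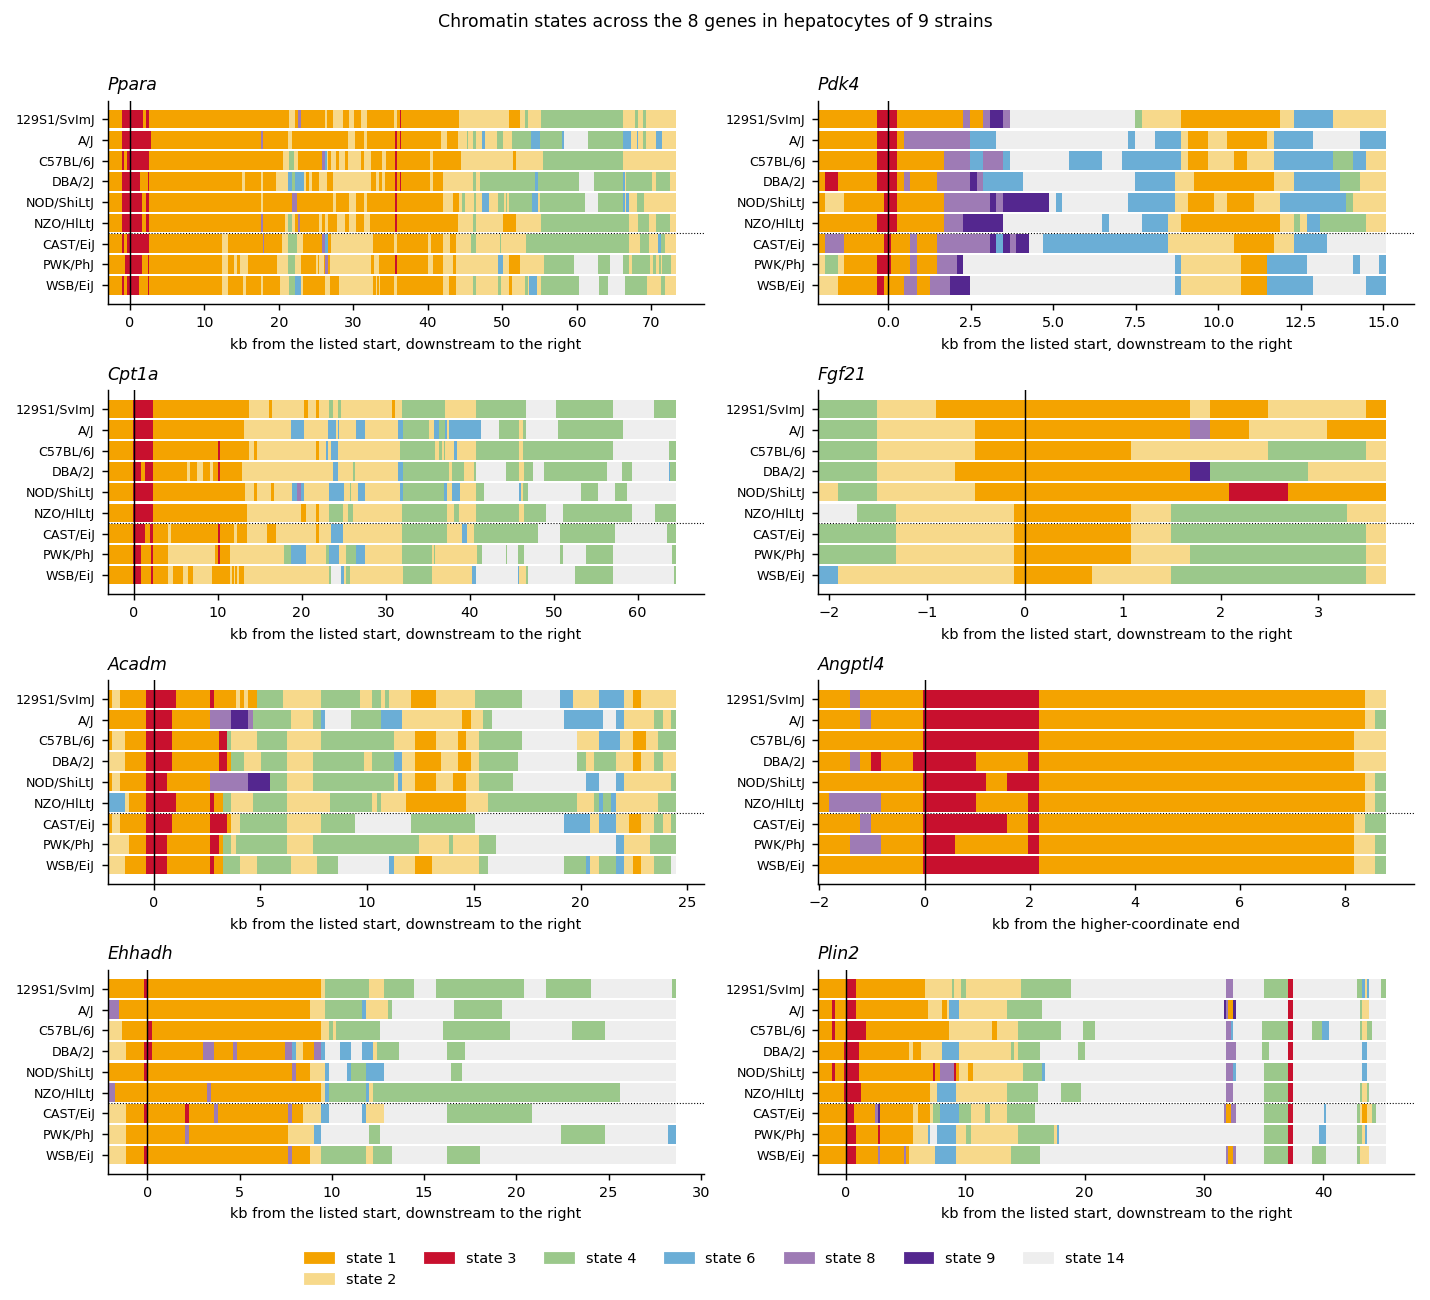
Chromatin state of each 200-bp bin (colours) in the 8 genes and 2 kb on each side, for the 6 laboratory strains (above the dotted line) and the 3 wild-derived strains (below it). The x axis is the distance in kb from the start (vertical line, higher-coordinate end for Angptl4); state 3 is broad at Ppara, absent around the start of Fgf21, and the orange state 1 block at Ppara and Cpt1a breaks earlier in the wild-derived strains.

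Ppara, the receptor gene (chr15, 85734910 to 85806851), had the broadest state 3 of the set. Within 1 kb of its start, 8 bins carried state 3 in C57BL/6J, CAST/EiJ, PWK/PhJ and WSB/EiJ and 10 bins in the other 5 strains (9.11 ± 1.05, SD, n = 9). The longest single segment of state 3 ran from 1600 bp in WSB/EiJ to 3800 bp in A/J, with a median of 2600 bp. Behind it the gene was in state 1 without exception: from 5 to 10 kb downstream of the start every bin was in state 1 in every strain. State 1 covered 47.2% of the Ppara span on average, from 38.8% in DBA/2J to 53.5% in 129S1/SvImJ, while the median protein-coding gene had 2.37%.

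Differences between strains at Ppara were larger beyond 20 kb from the start than nearer to it. The share of bins in different states, averaged over the 36 pairs of strains and called divergence here, was 11.7% over the first 2 kb, 0.00% from 5 to 10 kb, 10.7% from 10 to 20 kb, 31.1% from 20 to 40 kb and 36.7% beyond 40 kb. The exchange of state 1 for state 2 made up 36.2% of all disagreements at this gene. State 14 was absent from the whole span in 129S1/SvImJ, C57BL/6J, CAST/EiJ and NZO/HlLtJ and began 58.4 to 61.2 kb from the start in the other 5. The padded span also takes in the beginning or end of the neighbouring gene Cdpf1.

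Cpt1a (chr19, 3322326 to 3385735), the gatekeeper of mitochondrial import, began its state 3 segment at the same base, 3323201, in all 9 strains. That segment was 2400 bp long in 129S1/SvImJ, A/J, C57BL/6J, NOD/ShiLtJ and NZO/HlLtJ, 1400 bp in CAST/EiJ and 1000 bp in DBA/2J, PWK/PhJ and WSB/EiJ. All bins of the 2 kb before the listed start were in state 1 in every strain. That start, base 3323301, lies inside the annotated gene, so part of these 2 kb belongs to the gene. The outermost bin of the span, chr19:3320201-3320400, was in state 1 in CAST/EiJ and in state 3 in the other 8 strains. Over the first 2 kb downstream the divergence was 25%, where the end of the state 3 segment differed between strains and its beginning did not.

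Farther into Cpt1a, state 1 gave way to state 2, then to state 4 and state 14. Its state 1 share was 19.6% on average, with PWK/PhJ lowest at 10.9%, WSB/EiJ next at 16.0% and 129S1/SvImJ highest at 23.4%. The first bin of state 14 lay 23.6 kb from the start in WSB/EiJ and 40.8 to 57.2 kb in the other strains, C57BL/6J having the longest reach. The swap between state 4 and state 14 accounted for 42.7% of the disagreement at Cpt1a. PWK/PhJ had 20 bins in a state that none of the other strains shared while these 8 agreed. This was the largest such count of any strain and gene in the set. As a share of the span it was 5.92%, below WSB/EiJ at Fgf21 (10.3%) and NZO/HlLtJ at Ehhadh (9.09%) and Acadm (6.77%). A noncoding gene, Gm36532, lies inside the span.

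Acadm (chr3, 153922353 to 153944643), the medium-chain dehydrogenase, had 5 to 7 bins of state 3 around its start in all strains, and its state 3 segment ended at base 153945000 in each of them with a length of 1000 to 1400 bp. The first 2 kb differed little between strains (divergence 8.89%), whereas the next 3 kb differed much (54.8%). There A/J and NOD/ShiLtJ carried states 8 and 9, which no other strain had anywhere in the gene: state 8 took 4.51% and 6.77% of the span and state 9 took 3.01% and 3.76%. In A/J this stretch ran over chr3:153940001-153942000 and in NOD/ShiLtJ over chr3:153939201-153942000, 2.6 kb and more downstream of the start.

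Acadm also had the highest divergence of the 3 oxidation enzymes, 41.4% ± 9.17 (SD over 36 pairs), from 21.1% between C57BL/6J and DBA/2J to 60.2% between A/J and NZO/HlLtJ. Only 20.3% of its bins carried the same state in all 9 strains. In NZO/HlLtJ no bin of Acadm was in state 14. In the wild-derived strains 21.1% to 25.6% of bins were, which is taken up below.

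Ehhadh (chr16, 21761285 to 21787834), the peroxisomal enzyme, differed from the mitochondrial enzymes at its start. State 3 filled 1 bin within 1 kb of the start in 129S1/SvImJ, C57BL/6J, CAST/EiJ, NOD/ShiLtJ and WSB/EiJ, 2 bins in DBA/2J and none in A/J, NZO/HlLtJ and PWK/PhJ. State 1 surrounded the start in all 9 strains, and from 2 to 5 kb downstream 94.1% of bins were in state 1. With a demand of at least 3 bins no strain counted at Ehhadh, and 5 strains counted at Pdk4.

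The strains differed in how much of Ehhadh was in state 4 or state 14. State 4 took 50% of the span in NZO/HlLtJ, 37.0% in 129S1/SvImJ and 26.0% in C57BL/6J, but 4.55% in NOD/ShiLtJ, 7.14% in DBA/2J and 9.74% in PWK/PhJ. State 14 moved the other way, from 9.74% in NZO/HlLtJ to 52.6% in NOD/ShiLtJ, and exchanges between states 4 and 14 were 64.2% of the gene's disagreement. From 10 to 20 kb downstream of the start the divergence was 49.0%, against 9.44% over the first 2 kb. NZO/HlLtJ alone carried a state that the other 8 strains agreed against in 14 bins, and its first bin of state 14 lay 25.8 kb from the start, where the other strains had 9.6 to 14.6 kb.

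Pdk4 (chr6, 5483351 to 5496278), the pyruvate dehydrogenase kinase, had the highest divergence of the set. Its divergence was 46.9% ± 11.9, higher than in 97.3% of protein-coding genes, and only 8.14% of its bins, 7 in number, were in the same state in all 9 strains. The pairs ranged from 13.95% between PWK/PhJ and WSB/EiJ to 62.8%, reached both by 129S1/SvImJ with CAST/EiJ and by NOD/ShiLtJ with WSB/EiJ. State 3 at the start was narrow but present in every strain, with 3 bins in 129S1/SvImJ, A/J, C57BL/6J, DBA/2J and NZO/HlLtJ, 2 in NOD/ShiLtJ and PWK/PhJ and 1 in CAST/EiJ and WSB/EiJ.

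The body of Pdk4 was laid out unlike that of the oxidation enzymes. States 8 and 9 followed the start, with 7.75% ± 3.90 and 3.23% ± 3.23 of the span (SD, n = 9), and state 6 took 18.3% ± 9.21, from 6.98% in 129S1/SvImJ to 32.6% in C57BL/6J. State 4, common in the enzymes, held 2.33%. State 1 had a second stretch toward the far end of the gene, and its share was highest in 129S1/SvImJ at 41.9% and lowest, 17.4%, in PWK/PhJ and WSB/EiJ. These last strains also had the most bins in state 14, 48.8% in PWK/PhJ and 45.3% in WSB/EiJ, against 12.8% to 34.9% in the other 7.

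Fgf21 (chr7, 45613890 to 45615490), the fasting hormone, was the only gene of the 7 with no state 3 near its start in any strain. Its start bin was in state 1 in all 9 strains. Away from the start the strains fell along a range: state 1 covered 62.1% of the span in NOD/ShiLtJ, 58.6% in 129S1/SvImJ, 55.2% in A/J, 41.4% in DBA/2J and 27.6% in C57BL/6J, then 20.7% in CAST/EiJ, NZO/HlLtJ and PWK/PhJ and 13.8% in WSB/EiJ. All 3 wild-derived strains were at or below the lowest laboratory strain, NZO/HlLtJ, with which CAST/EiJ and PWK/PhJ tied. Where state 1 was short, states 2 and 4 took its place, and state 4 ranged from 6.90% in NOD/ShiLtJ to 48.3% in CAST/EiJ.

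The small size of Fgf21, 29 bins with its padding, makes each bin weigh 3.45% of its span. Its divergence was 42.0% ± 18.4, from 3.45% between CAST/EiJ and PWK/PhJ, a single bin, to 75.9% between 129S1/SvImJ and WSB/EiJ. It came mostly from the flank behind the gene: 2 to 5 kb downstream of the start the divergence was 63.0%, and without the 2 kb of padding the gene gave 25.3%. State 3 appeared once in the span, as 600 bp at chr7:45612801-45613400 in NOD/ShiLtJ, beyond the far end of the gene. Without padding, in the 9 bins of the gene itself, state 1 held 79.0% on average, from 44.4% in WSB/EiJ to 100% in 129S1/SvImJ, A/J, DBA/2J and NOD/ShiLtJ. Exchanges of state 1 with state 2 made up 38.3% of the disagreement in the padded span.

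Angptl4 (chr17, 33774900 to 33781575), the lipase inhibitor, had the lowest divergence of the set with 2 kb of padding. State 1 covered 76.3% of its span on average, from 74.1% in 129S1/SvImJ, A/J, C57BL/6J and WSB/EiJ to 81.5% in PWK/PhJ, and no bin was in state 14 in any strain. Its divergence was 12.6% ± 5.86, and 70.4% of bins were in the same state in all 9 strains. These values depended on the flanks: with 10 kb of padding the divergence was 25.4%, above the 19.9% of Plin2, and the state 1 share 33.7%. The pair C57BL/6J and WSB/EiJ differed in 1.85% of bins, which is 1 bin of 54. State 3 stood at the higher-coordinate end of the gene in all strains, with 3 bins within 1 kb in PWK/PhJ, 5 in NZO/HlLtJ, 7 in DBA/2J and 6 in the others. Its extent made the main difference between strains, as exchanges between states 1 and 3 were 52.5% of the disagreement and the longest segment ran from 600 bp in PWK/PhJ to 2200 bp in 129S1/SvImJ, A/J, C57BL/6J and WSB/EiJ.

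Plin2 (chr4, 86626910 to 86670217), the lipid droplet coat, had 3 to 7 bins of state 3 at its start, fewest in CAST/EiJ and most in NOD/ShiLtJ. Its divergence of 19.5% ± 3.66 was close to the median of all protein-coding genes, 19.7%, and 50.5% of the span was in state 14. Over bins outside state 14 in at least 1 strain its divergence was 30.8%. By distance from the start its divergence was 21.1% over the first 2 kb, 5.37% from 2 to 5 kb and 53.1% from 5 to 10 kb. A second piece of state 3, chr4:86632601-86633000, was identical in all 9 strains and lay beside the pseudogene Gm12551, which is inside the span.

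Across the set, 6 of the 8 genes had a divergence above the median of all protein-coding genes, and the median of the 8 was 30.7%. In ascending order the divergences were 12.6% for Angptl4, 19.5% for Plin2, 26.8% for Ppara, 29.3% for Cpt1a, 32.0% for Ehhadh, 41.4% for Acadm, 42.0% for Fgf21 and 46.9% for Pdk4. Neighbours in this order from Ppara to Ehhadh, and from Acadm to Pdk4, differed by less than the SD over their pairs. The pairs share strains and are not independent, so these SDs describe a spread and give no test. When only bins outside state 14 in at least 1 strain were counted, the median of the 8 was 32.9% and that of all genes 34.5%, and 4 of the 8 were above it, so the set's median was not above that of all genes on that measure.

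**Figure D2:**
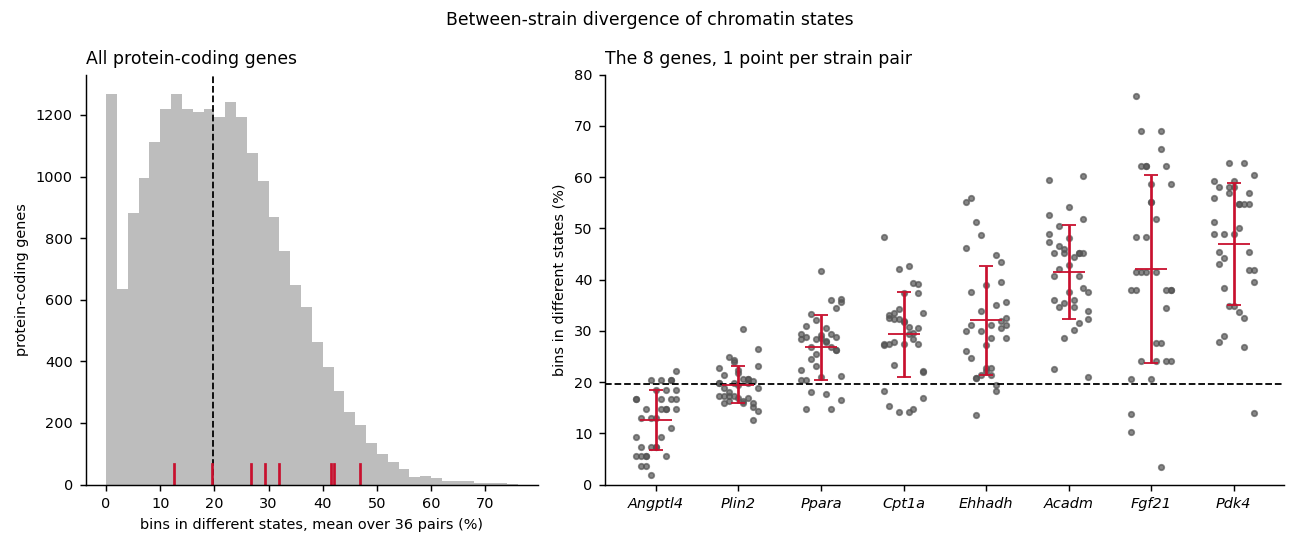
Left, histogram of divergence (percent of 200-bp bins in different states, mean over 36 strain pairs) of 21631 protein-coding genes, with the 8 genes as red ticks and the median of all genes, 19.7%, as a dashed line. Right, the 36 strain pairs of each gene as points with mean and SD in red; Angptl4 lies lowest at 12.6%, Pdk4 highest at 46.9%, and Fgf21 has the widest spread.

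The kind of exchange differed from that of protein-coding genes as a whole. Swaps between states 4 and 14 were 29.1% of the disagreement in the set and 14.7% over all genes, those between 1 and 2 were 21.5% and 4.95%, and those between 2 and 4 were 16.2% and 3.77%. Swaps between 6 and 14 were 4.28% in the set and 10.1% over all genes. States 1, 2 and 4 also held larger shares of these spans than of protein-coding genes on average (except state 4 at Pdk4 and Angptl4 and state 2 at Angptl4), as the bars of state composition show, and the shares of exchanges were not adjusted for this.

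**Figure D3:**
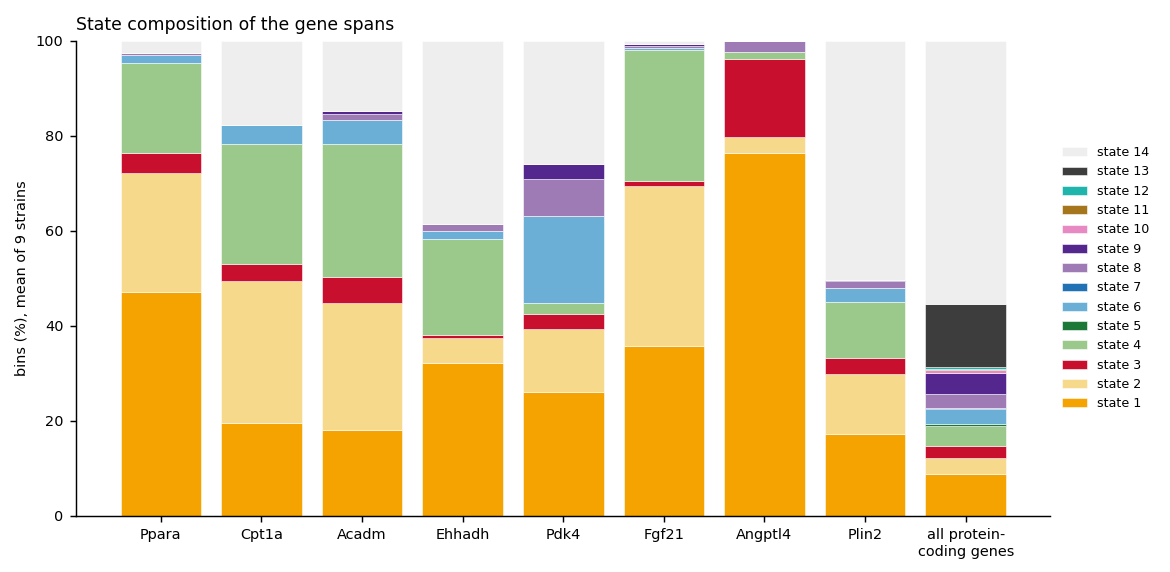
State composition of the 8 gene spans and the mean over all protein-coding genes, as percent of 200-bp bins averaged over 9 strains. State 1 ranges from 17.2% at Plin2 to 76.3% at Angptl4, and state 13 is present in the bar for all genes and in none of the 8.

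The 2 kb before the start were in state 1 for 69.0% of bins on average over the 7 genes with a listed start and for 19.9% over all genes. The difference reached far downstream: from 5 to 10 kb state 1 held 50.8% against 7.28%, and from 10 to 20 kb 27.0% against 4.86%. Over the first 2 kb state 3 held 42.5% against 14.6%. These are averages over 9 strains and over genes of unequal length, and 6 of the 7 genes reached beyond 5 kb.

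Origin of the strains was compared as the share of bins outside state 14 in 3 wild-derived against 6 laboratory strains. Over all 21631 genes the exact permutation test with its 84 splits gave no gene below an adjusted p of 0.05 (0% of genes; Benjamini-Hochberg over all genes), while 7.04% were below an unadjusted 0.05. The smallest p that this design allows is 0.0119. Over 21631 genes, an adjusted p below 0.05 would need very many genes at that smallest p. The lack of genes after adjustment therefore says little about whether the groups differ. Of the 8 genes, 1 had groups that did not overlap with lower values in wild-derived strains, against 2.76% of all genes, and 0 had higher values, against 0.559%.

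That gene was Acadm. Its share outside state 14 was 74.4% in CAST/EiJ, 76.7% in WSB/EiJ and 78.9% in PWK/PhJ, and 80.5% in A/J, 84.2% in NOD/ShiLtJ, 89.5% in DBA/2J, 90.2% in C57BL/6J, 93.2% in 129S1/SvImJ and 100% in NZO/HlLtJ. The group means were 76.7% and 89.6%, a difference of -12.9 points (exact permutation test, two-sided, unadjusted p = 0.0357, adjusted p = 0.631). All 3 wild-derived strains lay below all 6 laboratory strains. The gap between PWK/PhJ and A/J was small beside the range within the laboratory strains. The result did not pass adjustment, which the few possible splits leave hardly any room to pass. With 10 kb of padding the groups overlapped.

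For the other 7 genes the groups overlapped on this measure. Pdk4 had a difference of -14.5 points (-8.33 without padding), with CAST/EiJ at 87.2% beside PWK/PhJ at 51.2% and WSB/EiJ at 54.7%. The laboratory strains lay between 65.1% and 87.2%, so CAST/EiJ alone kept the groups together (exact permutation test, two-sided, unadjusted p = 0.190, adjusted p = 0.770). Without CAST/EiJ, 3 of the 8 genes, Ppara, Acadm and Pdk4, had lower values in wild-derived strains without overlap, against 10.6% of all genes under the same omission, and 0 had higher values, against 1.21%. The Pdk4 difference was -26.0 points without CAST/EiJ, -7.95 without PWK/PhJ and -9.69 without WSB/EiJ.

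On the share in state 1, which the plot by strain shows, no gene of the 8 had groups apart in either direction, against 1.72% of all genes lower and 0.633% higher in wild-derived strains. By direction alone, the wild-derived mean was the higher one at Angptl4 (77.2% against 75.9%) and the lower one at the other genes. The share of all genes with that direction was not counted, so the direction is not read as a result about the set. Fgf21 had the widest difference, 18.4% ± 3.98 in wild-derived and 44.3% ± 17.2 in laboratory strains (SD, n = 3 and 6; exact permutation test, two-sided, unadjusted p = 0.0714, adjusted p = 0.971). Without padding its means were 59.3% and 88.9%. Acadm gave 14.5% ± 3.04 and 19.9% ± 2.80 (exact permutation test, two-sided, unadjusted p = 0.0476, adjusted p = 0.964), where 4.89% of all genes had an unadjusted p under 0.05. Per strain, the median state 1 share over the 8 genes was lowest in WSB/EiJ (17.4%), PWK/PhJ (19.1%) and CAST/EiJ (22.3%). It lay between 26.0% and 39.4% in the laboratory strains. Fgf21, whose share depended on padding, enters this median. Without Fgf21 the middle gene had 22.1% in A/J and 22.5% in CAST/EiJ, so the groups overlapped. Over all genes the median was 2.21%, 2.27% and 2.26% in these wild-derived strains and 1.81% to 2.69% in the laboratory strains. The mean over all genes was 8.52% in WSB/EiJ, 7.84% in PWK/PhJ and 8.71% in CAST/EiJ. It was 8.16% to 9.73% in the laboratory strains.

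**Figure D4:**
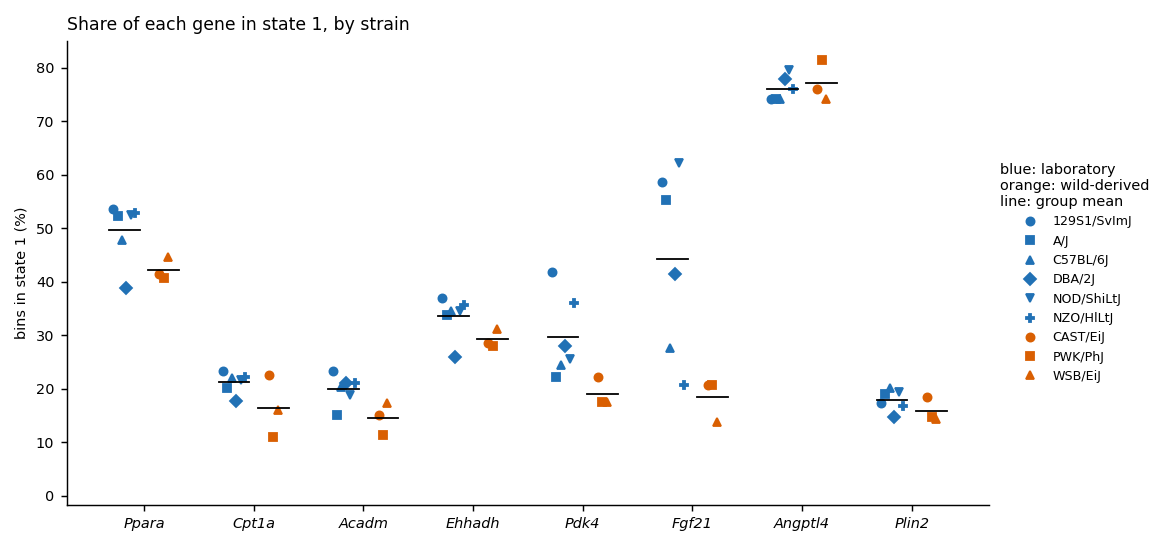
Percent of 200-bp bins in state 1 in each gene span, 1 point per strain (blue, 6 laboratory; orange, 3 wild-derived) with the group mean as a line. At Fgf21 the values run from 13.8% in WSB/EiJ to 62.1% in NOD/ShiLtJ; at Angptl4 all strains lie between 74.1% and 81.5%.

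A further pattern was seen in the maps and then measured, so it is given without a test. It is the unbroken stretch of states 1 and 3 that runs downstream from the start, counted within the padded span. At Ppara it was 12.4 kb in each of CAST/EiJ, PWK/PhJ and WSB/EiJ, and 15 kb in DBA/2J, 17.6 kb in A/J, NOD/ShiLtJ and NZO/HlLtJ, 20.6 kb in C57BL/6J and 21.4 kb in 129S1/SvImJ. At Cpt1a it was 4.0 kb in the same 3 strains, 6.2 kb in DBA/2J and 13 to 13.6 kb in the other 5 laboratory strains. In both genes the wild-derived strains agreed to the bin, and DBA/2J was the laboratory strain nearest to them.

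Of the 7 genes with a listed start, these 2 had wild-derived strains below all laboratory strains on the stretch, against 0.562% of 17274 genes, or 1.05% of the 9220 genes with a stretch above 0 in at least 1 strain. The measure was chosen after the maps of these genes had been seen, so these shares give the pattern no support. The median stretch was 0.133 kb over all genes and 1.13 kb over those with a stretch, and the shares were not adjusted for stretch length. The reverse order was found in 0 of 7, against 0.278%. Plin2 came near, with 2.4 kb in CAST/EiJ, 2.6 kb in WSB/EiJ and 5.6 kb in PWK/PhJ against 5.2 kb in DBA/2J and 6.6 to 8.6 kb in the others. Acadm showed no such order, with 3.2 to 3.6 kb against 2.6 to 3.8 kb. The mean Ppara stretch of 16.3 kb exceeded that of 99.97% of the 17274 genes, where the 99th percentile was 8.07 kb. Genes without any stretch are counted among these. The Ppara span has 381 bins, against a median of 108 over all protein-coding genes, and the comparison was not adjusted for span length.

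**Figure D5:**
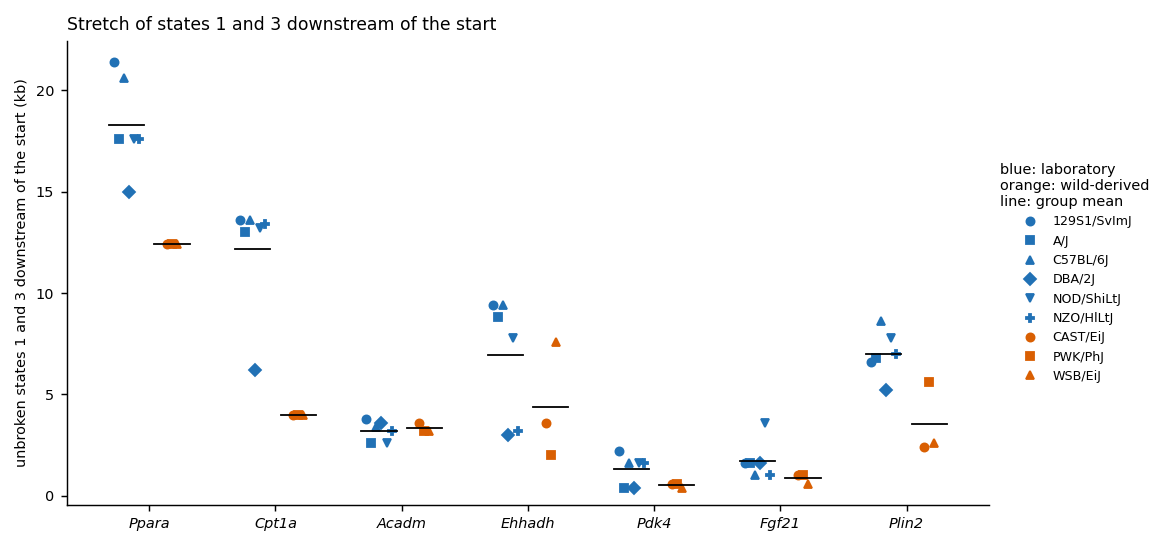
Length in kb of the unbroken run of states 1 and 3 downstream of the start, 1 point per strain (blue, 6 laboratory; orange, 3 wild-derived), with the group mean as a line, for the 7 genes with a listed start. All 3 wild-derived strains sit at 12.4 kb at Ppara and 4.0 kb at Cpt1a, below every laboratory strain.

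The breaks could be placed exactly. At Ppara, chr15:85748201-85749000, 12.6 kb from the start, was in state 2 in all 3 wild-derived and in state 1 in all 6 laboratory strains. At Cpt1a, chr19:3327401-3327800 and chr19:3335201-3335400 showed the same exchange, and chr19:3324601-3325200 was in state 1 in the wild-derived and in state 3 in the laboratory strains. State 2 for state 1 was also found at Plin2 (chr4:86664001-86664400) and Pdk4 (chr6:5486601-5487000), and state 1 for state 3 at Pdk4 (chr6:5496001-5496200). In all, 15 of the 1413 bins (1.06%) had 1 state in the 3 wild-derived and another in the 6 laboratory strains, against 0.158% of bins in protein-coding spans. The 15 bins are those of the regions just listed, in which neighbouring bins are not independent. They include the breaks at Ppara and Cpt1a that had been seen in the maps, so the share is no separate result. Acadm, Ehhadh, Fgf21 and Angptl4 had no such bin. The comparison was not adjusted for the state composition of the spans.

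The relatives of the 8 genes, 21 named by family, differed in their states. Among the receptors, Ppard had state 3 at its start in 9 strains and a divergence of 43.4%, while Pparg, the adipose receptor, had it in 7 strains with state 13 at its start in 2. Cpt2 and the dehydrogenases Acads, Acadl and Acadvl had state 3 in 9 strains, as did Hadha. The neuronal carnitine palmitoyltransferase Cpt1c had it in none. Pdk1 and Pdk2 had state 3 in 9 strains, and Pdk3, on chromosome X, lay almost wholly in state 13 (96.8%) with a divergence of 2.06%. The hormone relatives Fgf15 and Fgf23 held 63.6% and 72.9% of their bins in state 13, which Fgf21 lacked.

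Angptl8, a further regulator of lipoprotein lipase, had 71.9% of bins in state 1, beside 76.3% for Angptl4, and Angptl6 had state 3 in 7 strains. Among the lipid droplet coats, Plin5 had 75.2% of its bins in state 1 and state 3 in 6 strains, Plin3 had it in 8, and Plin1 and Plin4 in none. Of the 18 relatives with a listed start, 9 had state 3 in all 9 strains and 5 in none, beside 41.3% and 47.1% of all genes. Cpt1b, Hsd17b4 and Fgf15 had no listed start, and Cpt1b and Hsd17b4 had divergences of 31.9% and 14.8%.

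A wider list of 48 genes of fatty acid oxidation, ketone body synthesis and Ppara control gave 31 of 36 with state 3 at the start in all 9 strains, against 41.3% of all genes. All 15 genes of mitochondrial oxidation with a listed start and all 7 of peroxisomal oxidation were among them. The coactivator gene Ppargc1a and the liver transcription factor Creb3l3 had it in 0 strains, the acyl-CoA thioesterase Acot1 in 1, the fatty acid carrier Cd36 in 2 and the transporter Slc27a1 in 5. Only the outermost listed start of each gene was examined, and other starts were not. Away from that start, state 3 held 6.74% of the Creb3l3 span. Ehhadh had it in 6 strains. Acot1 and Acot2, Acaa1a and Acaa1b, and Cyp4a10 and Cyp4a14 are near copies of each other, and how reads were shared between them is not given in the sources used here.

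The median divergence of the 48 genes was 28.9%, and 39 of them lay above the median of all genes. Over bins outside state 14 in at least 1 strain the median of the list was 35.7%, against 34.5% for all genes. The most divergent were Cyp4a14 (56.6%), a fatty acid hydroxylase, Acadvl (50.2%) and Cpt2 (48.2%), and the least were Ppargc1a (9.40%), the acyl-CoA synthetase Acsl1 (9.89%) and Etfa (13.4%), an electron carrier. On the share outside state 14, wild-derived and laboratory strains did not overlap in 3 of the 48, Scp2 and Acat1 with lower and Cd36 with higher values in wild-derived strains, against 2.76% and 0.559% of all genes. For comparison, 14 genes of fatty acid synthesis had a median divergence of 25.5%, with 12 of the 14 above the median of all genes, and 6 of the 12 with a start had state 3 in all 9 strains.

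The genes most like each member were sought by the distance between their state compositions, the percent of bins in each of 14 states in each of 9 strains. Cpt1a and Acadm were close to each other (46.0), Cpt1a being the third nearest of all genes to Acadm after Mgrn1 and Fam20a, and no other pair of the 8 was nearer than 85.7. The nearest genes to Ppara were Slc25a42, Klkb1 and Dazap1, those to Cpt1a 2900026A02Rik, Mgrn1 and Fgd6, and those to Ehhadh Psap, Fam160b1 and Necap1. Ythdf2, Tmem183a and Jmjd1c were nearest to Pdk4, Aspscr1, Cyp3a11 and Igfbp2 to Fgf21, Srsf5, Abhd14b and Rdh7 to Angptl4, and Hcfc2, 3110082I17Rik and Itsn1 to Plin2. The nearest distance ran from 24.1 for Plin2 to 57.6 for Fgf21, where the median distance of all genes was 138 and 283.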

How the data were processed

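ChIP-seq libraries of hepatocytes were combined by the authors into 1 segmentation per strain. The deposited value is a category, the state number in column 4, in intervals that are multiples of 200 bp; it is no count, signal or score. The submitters' processing notes name build mm10, FastQC 0.11.5 and MACS 1.4.2. The aligner, the segmentation tool and the meaning of the states are not given in the sources used here.

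Each segmentation was written as 200-bp bins (Python 3.11.15, numpy 2.4.6, pandas 2.3.3). Gene spans came from RefSeq for GRCm38.p6 with 2 kb of padding, and starts and strands from its promoter table, which matched 17274 of 21631 genes. The outermost listed start of each gene was used, so state 3 at another start is not counted. At Ppara, Cpt1a and Plin2 this start lies inside the annotated span. For Angptl4 the higher-coordinate end was used. The measures were the percent of bins per state, the percent of bins differing between strains and state 3 within 1 kb of the start. Strain origin was compared by an exact two-sided permutation test over 84 splits, with Benjamini-Hochberg adjustment over all genes. The code was tested on simulated data. The members and gene lists were chosen with earlier results of these data known. Named were all members and relatives (1 relative is not reported here), the 3 highest and 3 lowest divergences of the pathway list, its genes lacking state 3 in some strain, and the 3 nearest genes by likeness; others were named after their values were seen.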

Additional observations from a re-analysis of the deposited data

Results flagged for a closer look

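Of 31 sets of 9 strain values (share outside state 14, share in state 1 and mean divergence from the other strains in 8 genes, and the stretch of states 1 and 3 in 7), 3 had a strain far from the rest, its gap to the nearest strain exceeding Dixon's limit for 9 values. Chance gives about 1 in 20 for independent sets without ties. These sets share strains and some hold tied values, so that rate is only a rough guide. At Fgf21, NZO/HlLtJ had 93.1% of bins outside state 14, where the other 8 strains had 100%, a difference of 2 bins. With 8 strains tied, any departure of 1 strain exceeds the limit. At Cpt1a, PWK/PhJ differed from the other strains in 38.0% of bins on average, the next being WSB/EiJ with 31.4%. At Fgf21, the stretch of states 1 and 3 was 3.6 kb in NOD/ShiLtJ and at most 1.6 kb in the others. In NOD/ShiLtJ it reached the end of the padded span, where counting stopped, so its full length was not measured.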

How the results depend on the processing

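Counting a bin as different only where the state was missing within 1 bin in the other strain lowered the median divergence of the 8 genes from 30.7% to 25.2% and that of all genes to 14.4%, with 6 of 8 above it, as in the original count; 7 were above it without padding and 8 with 10 kb. Padding of 10 kb lowered the median share in state 1 from 29.1% to 18.2%. The shares at Fgf21 (35.6%; 79.0% without padding, 17.6% with 10 kb) and Angptl4 (76.3%; 33.7% with 10 kb) moved by over 1.5 times. The number of genes lower in wild-derived strains without overlap was 1; it was 0 with 10 kb of padding, 0 on the share in state 1 and 2 on the stretch of states 1 and 3, a measure added after the data had been seen. On that stretch the difference at Acadm turned to 0.133 kb. Leaving out 1 strain at a time, the median divergence ranged from 28.6% to 31.8%, the share in state 1 from 27.8% to 29.9%, the genes without overlap from 1 to 3 (3 without CAST/EiJ), and the genes with state 3 in every strain stayed at 5. The unadjusted exact permutation p of Acadm was above 0.05 without CAST/EiJ, NOD/ShiLtJ, PWK/PhJ or WSB/EiJ, up to 0.0714, and fewer splits are possible there. For the other changes the cause was not tested. Autosomes alone gave the same reading of the background. No paired analysis was possible because replicate numbers name libraries only, and the mice of a strain were combined in 1 segmentation. Depth is unknown, so no limit from it can be given.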
